A study of Sus scrofa with 180 samples.

Results

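Genes of cytokine, interferon and tumour necrosis factor (TNF) signalling were followed in 2 pig muscles, Longissimus (LM) and Semimembranosus (SM). A gene was included when its symbol, in the study's lists of genes overrepresented in LM or in SM, began with IL and a digit, IFI, IFN, IRF, TNF, TRAF, CXC, STAT and a digit, SOCS, JAK, NFKB or ISG. No symbol beginning with GBP or SLA- was found in the lists used here. The rule gave 42 genes read by 46 probes, of 3481 genes and 3967 probes named in the lists and 15198 probes on the array. The list for LM held 14 of the genes (16 probes) and the list for SM held 28 (30 probes), and no gene was in both. The members were thus chosen by the contrast between the muscles, so their differences between LM and SM are given as a description with no test. Most tests below are made on levels within 1 muscle, which the contrast between the muscles does not compare. Tests of a difference between slopes and of the number use both muscles, with the slide, which holds 1 muscle, as a covariate.

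The 90 pigs were females and barrows without genetic modification, from a second-generation intercross of the commercial sire lines F016 (Pietrain type) and FH019 (synthetic, with Hampshire, Duroc and Large-White founders). The study's methods spell the first line FH016. The pigs belonged to 2 sire families and received no treatment. Both muscles are classed as glycolytic, were taken soon after slaughter, and were each read on 1 single-colour Agilent array, 90 of each muscle. The labels do not give the sex, sire family, slaughter batch or carcass weight of a given pig, so none of these was fitted. Since only the muscle, a number and the slide separate the arrays, p-values measure the spread between these arrays.

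Interferons bind receptors at the cell surface and act through Janus kinases (JAK), which phosphorylate STAT transcription factors. These switch on interferon-stimulated genes such as ISG15, IFIT1 and MX1, which act against viruses. TNF binds its own receptors, TRAF adaptors pass the signal on, and NF-kB is released from its IkB inhibitors. In muscle these genes are expressed by fibres as well as by vessel, connective tissue and immune cells, and in bulk RNA fewer cells of a type cannot be told apart from less RNA per cell.

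The median processed signal of an array was 216 in LM (171 to 304) and 170 in SM (105 to 252), and a median of 83.4% of the probes in LM and 73.4% in SM were well above background. All slides and scan days held 1 muscle each, so differences between slides cannot be told apart from those between muscles. Levels are log2 of the processed signal relative to the median of the array, so 0 is the level of the middle probe, and values of different probes are not compared. All 46 member probes passed the filter that kept 10987 probes. Of the defining markers of muscle fibres (TTN, NEB, CKM, ACTA1, MYH1, TNNI1, MYL2 and RYR1), all were read above background on 100% of the arrays, apart from RYR1 on 80% of those of SM.

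The number that the labels give as the pig did not join the muscles on most probes. This was examined, after the data had been seen, on 62 probes whose values fell at 2 levels in both muscles, none of them a member. Of the LM arrays, 40 had an SM array that was mutually the closest with a correlation over 0.8 on these probes (0.811 to 0.947, median 0.888), while the second closest had a median of 0.529 and a highest of 0.678. Only 2 of these 40 closest arrays carried the same number. Arrays with the same number had a median correlation of 0.170 (-0.387 to 0.909). Of 64 probes of 2 levels in all, the other 2 were left out because they did follow the number, with correlations of 0.846 and 0.856 between LM and SM. The check thus holds only probes whose correlation under the number was 0.8 or less. With a looser limit for what counts as 2 levels (171 probes), 12 LM arrays had such a closest array and none carried its number, and with a stricter one (24 probes) 42 had one and 2 did. Results by number are therefore called results under the number and are not read as results of a pig. Comparisons between all arrays of LM and all arrays of SM, and those within 1 muscle, do not use the number.

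Probes are 60 bases long, and the first 30 are shown for the members on which the results turn, with the first 15 in capitals, the stretch in which cytosines were counted for the array-wide index described later. They are the probes of the interferon-stimulated genes that moved together, of both genes whose pair of probes differ most in this stretch, of IL2RG, whose stretch holds no cytosine, and of TNFRSF1A, the member with the greatest difference in favour of SM.
ISG15 probe BX673809.1_570: CCAGGGGAGCACCCCaccgagtgctagtaa
IFIT1 probe CB286467.1_1726: GCTGTGCCACAGTGGaaactcctcatttga
IFI35 probe BQ605084.1_1076: GAGTTGTGAAACGCCgcctaagagcaagaa
STAT2 probe F23177.1.s_4590: GCACTCTGATCTCAGatctccactctccag
TRAF1 probe BP159859.1_1811: CTCTGAGCCACCAGCagaggttgtcctttt
TRAF1 probe BX924833.1_148: TTTGAATATTTCCCTtgggccatgcaccat
STAT6 probe BP162868.1_1323: CTGTCTGAGCAGTTAgagcatctttctttt
STAT6 probe CA780036.1_3005: CCCTTTCTCCATCTTgggggtcatagatcc
IL2RG probe CA778453.1_1223: ATTTTGAATTTTGTGcccccataactgccc
TNFRSF1A probe BQ604619.1_2262: AATGGGGACTCCCGCtggagctgtggactt
Cytosines in the capitals number 7 for ISG15, 4 for IFIT1, 3 for IFI35, 5 for STAT2, 7 and 3 for the TRAF1 probes, 3 and 7 for the STAT6 probes, 0 for IL2RG and 5 for TNFRSF1A, in the order shown.

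Between the muscles, 16 member probes were higher in LM and 30 higher in SM. An adjusted p of 0.05 or less was reached by 83.5% of all probes tested, and by 15 of the 16 and all 30, counts that the choice of members fixes. The differences, LM minus SM, ran from 0.05 to 1.23 in the first set (median 0.40) and from -0.97 to -0.30 in the second (median -0.47). The median size was 0.43 for the members and 0.31 for all probes. For no member were the ranges of the muscles apart. The share of all probes with ranges apart is not given, so this is not read as a result about the members.

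**Figure D1:**
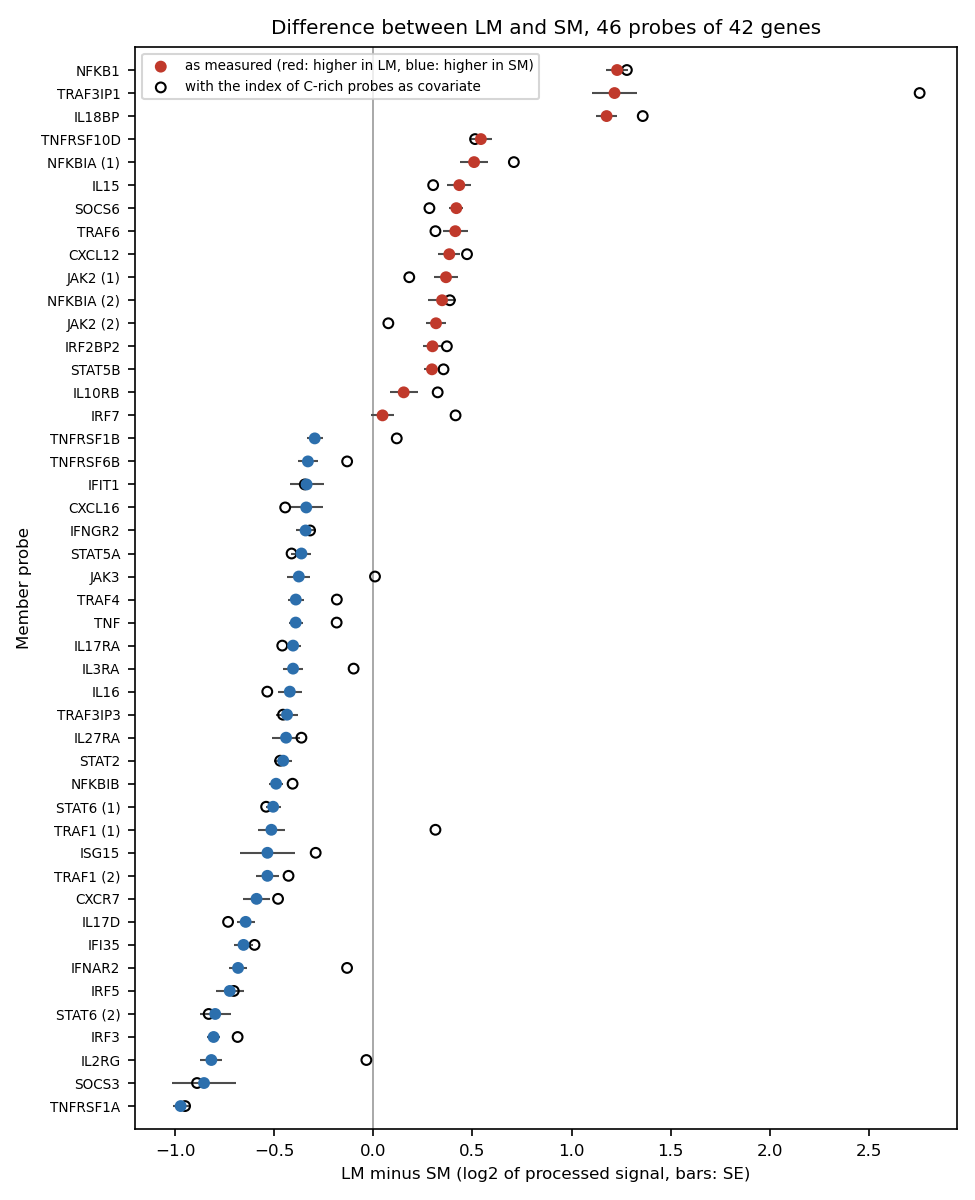
Difference of each member probe between the muscles (x axis, LM minus SM, log2 of the processed signal; bars, SE; filled points, as measured; open circles, after adjustment for the index of C-rich probes), in order of size, with genes of 2 probes numbered from the top. NFKB1, TRAF3IP1 and IL18BP lie beyond 1 on the side of LM and TNFRSF1A lies lowest at -0.97, while TNFRSF1B, JAK3 and 1 probe of TRAF1 cross 0 with the index.

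Among the ligands, IL15, a cytokine that muscle itself secretes, and the chemokine CXCL12 were higher in LM, by 0.43 ± 0.06 (SE) and 0.38 ± 0.06 on the log2 scale. TNF, IL16, IL17D and the chemokine CXCL16 were higher in SM. TNF, the founding cytokine of its family, ranged in LM from -1.13 to -0.02 (median -0.71, n = 86) and in SM from -0.96 to 0.13 (median -0.30, n = 90). Of its 86 LM arrays, 11 lay below the lowest SM array, and the difference was -0.39 ± 0.04, or 1.31-fold in favour of SM. CXCL16, which attracts T cells, was dim and ranged in LM from -4.49 to -2.14 (median -3.46, n = 62) and in SM from -3.95 to -1.91 (median -3.12, n = 64), a difference of -0.34 ± 0.08 between widely overlapping groups. IL16 and IL17D differed by -0.42 ± 0.06 and -0.64 ± 0.04. IL18BP, a secreted protein that neutralises the cytokine IL-18, went the other way and ranged in LM from -2.05 to -0.42 (median -1.10, n = 85) and in SM from -3.14 to -1.12 (median -2.31, n = 88). All 85 of its LM values lay above the median of SM, 46 of them above the highest SM value, and the difference was 1.18 ± 0.05, a 2.26-fold higher level in LM.

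Receptors lay mostly on the side of SM. TNFRSF1A, the TNF receptor found on most cells, ranged in LM from 2.80 to 4.16 (median 3.47, n = 90) and in SM from 3.74 to 5.33 (median 4.38, n = 90). In 75 of 90 LM arrays it was below the lowest SM array, and at -0.97 ± 0.04 (1.96-fold) it had the greatest difference in this direction among the members. The other TNF receptor, TNFRSF1B, differed by -0.30 ± 0.04, and TNFRSF6B, a soluble decoy for the Fas ligand, by -0.33 ± 0.05. TNFRSF10D, a decoy receptor for the death ligand TRAIL, was the exception and was higher in LM, where it ranged from -3.79 to -1.80 (median -2.61, n = 88), against -3.78 to -2.24 in SM (median -3.18, n = 80). The groups overlapped widely around a difference of 0.54 ± 0.06.

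IL2RG, the common gamma chain of the receptors for IL-2, IL-15 and related cytokines, ranged in LM from -0.73 to 1.01 (median -0.04, n = 84) and in SM from -0.08 to 2.03 (median 0.72, n = 88). It was 1.76-fold higher in SM (-0.82 ± 0.06), and 41 LM arrays lay below the lowest SM array. IFNAR2, the high-affinity chain of the type I interferon receptor, ranged in LM from -2.74 to -1.22 (median -2.07, n = 86) and in SM from -2.04 to -0.32 (median -1.38, n = 90) and differed by -0.68 ± 0.05. The interferon gamma receptor chain IFNGR2 differed by -0.34 ± 0.05. Chains of the receptors for IL-3, IL-17 and IL-27 (IL3RA, IL17RA and IL27RA) and the CXCL12 receptor CXCR7 were also higher in SM, at -0.41 ± 0.05, -0.41 ± 0.04, -0.44 ± 0.07 and -0.59 ± 0.07. IL10RB, a chain shared by the receptors for IL-10 and interferon lambda, was 0.15 ± 0.07, slightly higher in LM.

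The TRAF adaptors were divided. TRAF3IP1, which binds TRAF3 and is also a part of the transport machinery of cilia, ranged in LM from 4.78 to 8.33 (median 6.15, n = 81) and in SM from 3.84 to 7.05 (median 5.01, n = 90). It was 2.32-fold higher in LM (1.22 ± 0.11), with 9 LM values missing, 2 of them for saturation. TRAF6, a ubiquitin ligase below the interleukin-1 and Toll-like receptors, was higher in LM by 0.41 ± 0.06. TRAF4 and TRAF3IP3 were higher in SM, by -0.39 ± 0.04 and -0.44 ± 0.06 as LM minus SM. TRAF1, induced by NF-kB, was read by 2 probes. Probe BP159859.1_1811 ranged in LM from -3.10 to -1.02 (median -1.97, n = 89) and in SM from -2.18 to -0.25 (median -1.44, n = 90), and probe BX924833.1_148 ranged in LM from -1.59 to 0.58 (median -0.63, n = 87) and in SM from -1.19 to 1.30 (median -0.03, n = 89). Their differences were alike, -0.54 ± 0.06 and -0.52 ± 0.07, yet over the arrays of 1 muscle these probes did not follow each other (Pearson r of -0.21 in LM and 0.15 in SM). Whether they read the same RNA was not tested.

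In the NF-kB branch, NFKB1, which encodes the precursor of the p50 subunit, ranged in LM from -0.66 to 2.18 (median 1.75, n = 90) and in SM from -1.03 to 1.77 (median 0.44, n = 90). Of its LM arrays, 41 lay above the highest SM array and 89 of 90 above the SM median, and the difference of 1.23 ± 0.05 (2.35-fold) was the greatest of all members. NFKBIA, the IkB inhibitor that NF-kB itself induces, ranged in LM from -0.73 to 1.98 (median 0.64, n = 89) and in SM from -0.99 to 1.30 (median 0.21, n = 90) by probe CF355681.1_1223. By probe CB474718.1_1602 it ranged in LM from 2.47 to 4.87 (median 3.66, n = 90) and in SM from 2.12 to 4.39 (median 3.23, n = 90). The probes differed between muscles by 0.51 ± 0.07 and 0.35 ± 0.07 and rose and fell together over arrays (r = 0.88 in LM and 0.92 in SM). NFKBIB, the second inhibitor among the members, lay on the other side at -0.49 ± 0.04.

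Of the kinases and STAT factors, JAK2 was higher in LM and JAK3, the partner of the common gamma chain, higher in SM (-0.38 ± 0.06). JAK2 ranged in LM from -2.67 to -0.97 (median -1.87, n = 90) and in SM from -3.37 to -1.09 (median -2.24, n = 88) by probe AJ654743.1_4541. Probe AB036336.1_4328 ranged in LM from -2.67 to -1.28 (median -2.04, n = 90) and in SM from -3.28 to -1.46 (median -2.37, n = 88), and the differences were 0.37 ± 0.06 and 0.32 ± 0.05. STAT5A and STAT5B, close relatives that signal for growth hormone and many cytokines, lay on opposite sides, STAT5A at -0.36 ± 0.05 and STAT5B at 0.30 ± 0.04, although with normexp background correction STAT5B turned to -0.01. STAT5B was dim and ranged in LM from -2.95 to -1.72 (median -2.38, n = 90) and in SM from -3.40 to -2.13 (median -2.71, n = 86). Whether the probes read each other's RNA was not tested.

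STAT6, the factor below IL-4, was higher in SM by both probes. Probe BP162868.1_1323 ranged in LM from -1.07 to 2.06 (median -0.01, n = 90) and in SM from -0.28 to 2.21 (median 0.88, n = 88) and differed by -0.80 ± 0.08. Probe CA780036.1_3005 ranged in LM from -1.52 to -0.26 (median -0.79, n = 89) and in SM from -0.81 to 0.31 (median -0.33, n = 89) and differed by -0.51 ± 0.04. STAT2, a transcription factor of the type I interferon response, ranged in LM from -0.49 to 1.26 (median 0.14, n = 90) and in SM from 0.01 to 1.49 (median 0.61, n = 89), with 26 LM arrays below the lowest of SM and a difference of -0.46 ± 0.05.

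SOCS3, an inhibitor of JAK signalling that is induced quickly by IL-6 type cytokines, ranged in LM from -4.46 to 0.72 (median -2.81, n = 73) and in SM from -3.83 to 0.93 (median -1.60, n = 82). Its probe was dim, with a usable spot on 73 arrays of LM and 84 of SM, out of 90 each. From the lowest to the highest value kept it spanned 36.3-fold in LM and 27.0-fold in SM. Its difference of -0.86 ± 0.16 thus lay well within the range of each muscle. SOCS6 was higher in LM by 0.42 ± 0.04, with 51 LM arrays above the highest SM array.

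Among the members, interferon regulatory factors and interferon-stimulated genes lay on the side of SM, with IRF7 and IRF2BP2 as exceptions. Outside the members, 14 interferon response genes named from the same lists were divided, with 7 of their 17 probes higher in LM and 10 higher in SM. IRF3, which starts the production of interferon beta, ranged in LM from -0.23 to 0.58 (median 0.18, n = 89) and in SM from 0.53 to 1.81 (median 0.95, n = 90). With 85 of 89 LM arrays below the lowest SM array it came nearest of all members to a gap between the muscles, and it differed by -0.81 ± 0.03 (1.75-fold). IRF5, abundant in macrophages and B cells, differed by -0.73 ± 0.07. IRF7, itself induced by interferon, was the member that did not pass the threshold, at 0.05 ± 0.06. It was dim and ranged in LM from -3.91 to -1.84 (median -2.71, n = 90) and in SM from -3.60 to -1.95 (median -2.77, n = 85). IRF2BP2, a corepressor that binds IRF2, was higher in LM by 0.30 ± 0.05.

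ISG15, a ubiquitin-like modifier induced by interferon, ranged in LM from 0.79 to 5.48 (median 2.03, n = 89) and in SM from 1.46 to 5.07 (median 2.61, n = 88). Its spread was 25.8-fold in LM and 12.3-fold in SM over the values kept, and 2 SM arrays at 6.23 and 5.73 were removed by the limit of 3 SD. Against this spread between arrays of 1 muscle the difference of -0.54 ± 0.14, which does not pair the arrays, was small. IFIT1, which binds foreign RNA, ranged in LM from -1.04 to 1.51 (median -0.24, n = 90) and in SM from -0.64 to 1.79 (median 0.02, n = 88) and differed by -0.34 ± 0.09. IFI35, another interferon-induced protein, ranged in LM from -0.11 to 1.83 (median 0.47, n = 89) and in SM from 0.59 to 2.10 (median 1.08, n = 90). Here 62 LM arrays lay below the lowest of SM, and the difference was -0.66 ± 0.05 (1.58-fold).

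Markers of other cells moved with the muscle in the same direction as most members. Higher means in SM were found for 19 of 21 leukocyte probes, 9 of 9 endothelial, 6 of 6 adipocyte, 10 of 10 connective tissue and 3 of 3 red blood cell probes, against 5 of 14 of muscle fibres. The markers were named from the same lists as the members and so were chosen by the same contrast. These counts are a description with no test. Of all probes called between the muscles, 3925 were higher in LM and 5244 in SM. Each leukocyte probe gave usable spots on at least 84.4% of the arrays of both muscles together. In LM alone some had fewer, as FCER1G and TLR4 had values on 65 and 68 of the arrays with a value of ISG15. The mean level of the 20 leukocyte genes ran from -1.73 to 0.18 in LM (median -1.06) and from -1.01 to 0.63 in SM (median -0.34). Their part in the differences of the members was not tested.

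An array-wide property of the signal also moved with the muscle. On each array, probes that began with a C-rich stretch (at least 8 C among bases 1 to 15) were set against those with at most 2, each probe centred on its own mean, and this index of C-rich probes was -0.37 ± 0.34 (SD, n = 90) in LM and 0.38 ± 0.31 in SM. Over arrays of 1 muscle, 5 members in LM and 4 in SM followed the index with a correlation above 0.7. They were IL2RG (0.86 in LM and 0.87 in SM), TRAF3IP1 (0.83 and 0.82), IFNAR2 (0.75 and 0.70), TRAF1 by probe BX924833.1_148 (0.74 and 0.75) and, in LM, TNFRSF1B (0.71).

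With the index as a covariate the difference of 11 members shrank to below 50% or changed sign. IL2RG went from -0.82 to -0.04 and IFNAR2 from -0.68 to -0.13. TRAF1 by the same probe turned to 0.31, TNFRSF1B to 0.12 and JAK3 to 0.01, while TRAF3IP1 grew to 2.76. TNFRSF1A (-0.95), IRF3 (-0.69), IFI35 (-0.60), NFKB1 (1.28) and IL18BP (1.36) kept most of their difference. The index is confounded with the muscle, and its source was not tested.

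**Figure D2:**
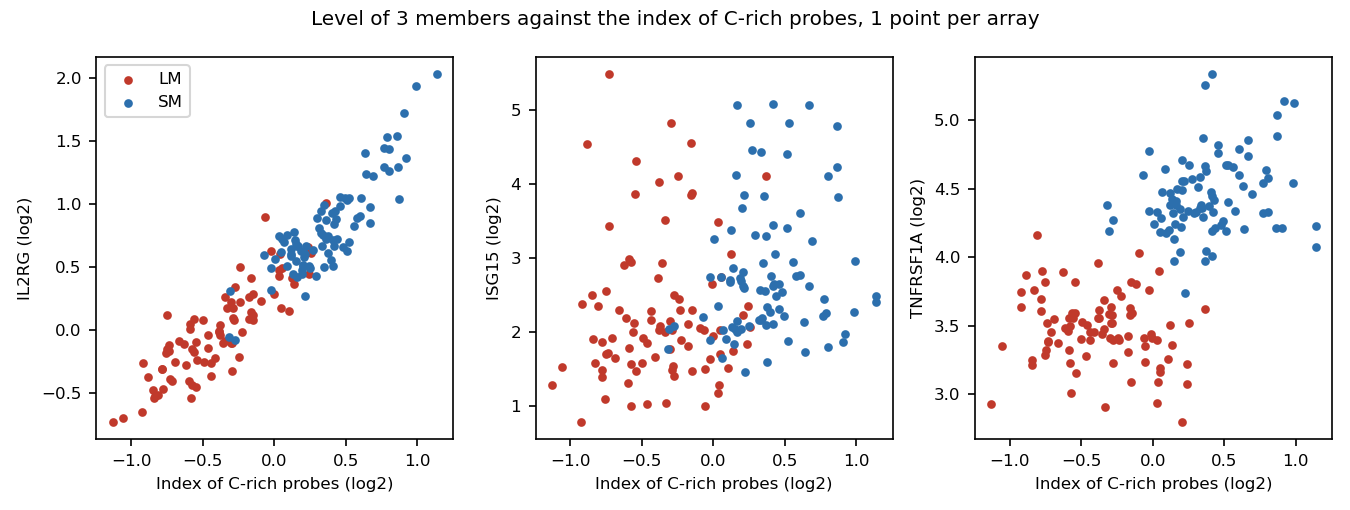
Level of IL2RG, ISG15 and TNFRSF1A (y axes, log2) against the index of C-rich probes (x axis, log2), 1 point per array, LM in red and SM in blue. IL2RG rose along the index in both muscles (r = 0.86 and 0.87), and ISG15 did so weakly (0.07 and 0.16). TNFRSF1A was mostly higher in SM where both muscles have arrays, at an index from -0.32 to 0.36. Beyond this stretch only 1 muscle is present, so the muscles cannot be compared there.

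Within each muscle, the members were next regressed on ISG15, the member with one of the widest spreads and a standard readout of interferon. The slope is the log2 change of a probe for each log2 unit of ISG15, fitted over the arrays of 1 muscle with the slide as a covariate. In LM, 5 of 45 members rose with ISG15 and none fell, where 1.54% of all probes were called in either direction. IFIT1 had a slope of 0.52 ± 0.03 (SE; limma adjusted p = 8.04e-23), and IFI35 one of 0.24 ± 0.03 (adjusted p = 1.88e-07). STAT2 rose by 0.22 ± 0.03, CXCL16 by 0.31 ± 0.06 and IRF5 by 0.19 ± 0.05, with adjusted p-values of 3.53e-07, 0.000632 and 0.0268.

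In SM, 10 members rose and none fell, against 8.94% of all probes. The 5 of LM were among them, with slopes of 0.54 ± 0.04 for IFIT1, 0.24 ± 0.02 for IFI35, 0.21 ± 0.03 for STAT2, 0.23 ± 0.06 for CXCL16 and 0.21 ± 0.06 for IRF5. The others were both probes of NFKBIA, IL15, IL10RB and TNFRSF1A, with slopes from 0.11 for TNFRSF1A to 0.19 for IL10RB and adjusted p-values between 0.0157 and 0.0449. When values beyond 3 SD were kept, which returned the 2 highest SM arrays of ISG15, 5 members were called, against 5.06% of all probes. In the test of the difference between the slopes of the muscles, no member was called (lowest adjusted p = 0.492, none with an unadjusted p under 0.05) and 0.0091% of all probes were. Here and below, this test treats all arrays as independent, although both muscles came from the same pigs.

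Pair by pair, 32 correlations were computed as one family, with p from 100000 permutations and Benjamini-Hochberg adjustment. ISG15 and IFIT1 had a Pearson r of 0.90 in LM (n = 89) and 0.87 in SM (n = 88), and a Spearman rho of 0.79 and 0.78. The permutation p of these was 1e-05, the smallest that the permutations can give, or 1.33e-05 adjusted for r and 1.52e-05 for rho. ISG15 and IFI35 had an r of 0.61 and 0.72 (rho 0.61 and 0.54), and ISG15 and STAT2 one of 0.61 and 0.63 (rho 0.54 and 0.58), with the same p-values. Without the 2 arrays farthest from the median of ISG15, r was 0.88 and 0.85 for IFIT1, 0.63 and 0.69 for IFI35, and 0.57 and 0.65 for STAT2, and after removal of slide and index it was 0.88 and 0.86, 0.66 and 0.74, and 0.66 and 0.60.

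CXCL16, which had a usable spot on fewer arrays, gave an r of 0.67 with ISG15 in LM (n = 61, rho 0.68, adjusted permutation p = 1.33e-05). In SM it gave 0.38 (n = 62, rho 0.37, adjusted permutation p = 0.00275), and without the 2 farthest arrays the values were 0.64 and 0.36. IRF7 did not follow ISG15, at 0.11 in LM (rho 0.11, adjusted permutation p = 0.325) and -0.10 in SM (rho -0.03, adjusted permutation p = 0.354), or 0.17 and -0.03 without the 2 farthest, although IRF7 is known as an interferon-induced gene. Its probe was dim, with medians of -2.71 in LM and -2.77 in SM.

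**Figure D3:**
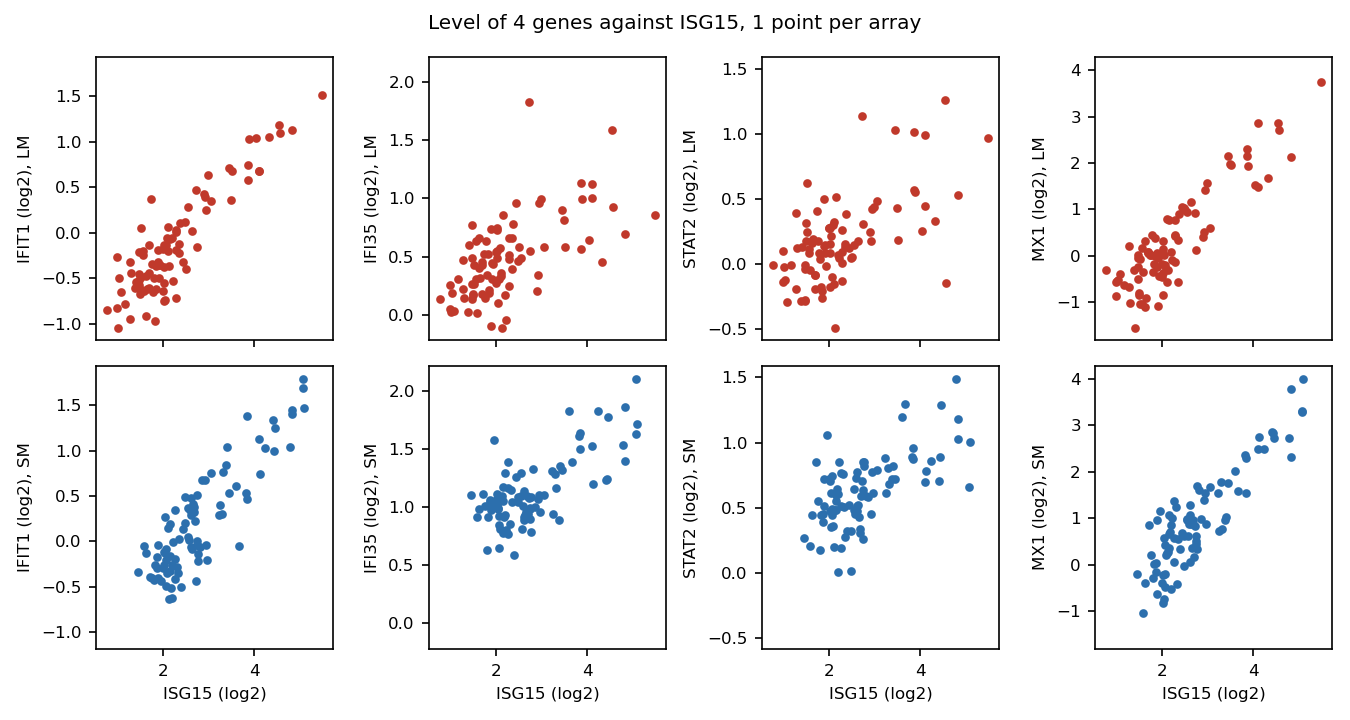
Level of IFIT1, IFI35, STAT2 and MX1 (y axes, log2) against ISG15 (x axis, log2), 1 point per array, with LM in the upper and SM in the lower panels. All rose with ISG15, with r of 0.90 and 0.87 for IFIT1 and of 0.89 in both muscles for MX1, and a few arrays at the right carry the highest values.

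Interferon-stimulated genes outside the members rose with ISG15 as well. Of 14 such genes, 11 rose in LM and 12 in SM, 11 of them in both, and none fell. Both muscles came from the same pigs, so agreement between them is not a repeat in other animals. MX1, an antiviral GTPase, had slopes of 0.95 ± 0.05 and 1.09 ± 0.06, close to the change of ISG15 itself. LGALS3BP, a secreted glycoprotein, followed with 0.83 ± 0.07 and 0.90 ± 0.05, and OAS1, which senses double-stranded RNA, with 0.58 ± 0.06 and 0.65 ± 0.15. The antigen-processing genes TAP1 (0.34 and 0.31) and PSMB9 (0.34 and 0.37) rose in both. PARP14 and TDRD7 were called in neither muscle. Outside the members, the 5 named probes with the smallest p were MX1, PLAC8, LGALS3BP, PHF11 and MX2 in LM and MX1, PLAC8, LGALS3BP, MOV10 and PHF11 in SM.

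Of 15 further genes of NF-kB and TNF signalling, none rose with ISG15 in LM and NKIRAS1 fell (-0.11 ± 0.03). In SM, CFLAR, FADD, BCL10, IKBKG and IKBKB rose, with slopes between 0.09 for IKBKB and 0.15 for FADD. Of 5 other JAK-STAT genes, CSF3 fell in SM (-0.28 ± 0.05) and none rose in either muscle. None of 6 immediate early genes was called.

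Leukocyte markers moved with ISG15, 7 of 20 genes in LM and 13 in SM, and none fell. In LM they were C1QC, CD53, LCP1 and the class II antigen presentation genes HLA-DMA, HLA-DMB, HLA-DQB1 and HLA-DRA. The mean of the leukocyte markers had a correlation of 0.56 with ISG15 in LM and 0.38 in SM. With this mean as a covariate, an alternative added after the data were seen, 3 members were called in each muscle, against 0.637% of all probes in LM and 6.90% in SM. These were IFIT1, with slopes of 0.51 in LM and 0.56 in SM, IFI35 (0.15 and 0.22) and STAT2 (0.15 and 0.15). CXCL16 (0.18 and 0.10) and IRF5 (-0.01 and -0.03) were no longer called. Of the 14 interferon-stimulated genes, 9 in LM and 10 in SM were still called as rising.

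SOCS3 was the second gene on which the members were regressed. In LM, over 73 arrays, none of 45 members was called by limma, 8 had an unadjusted p under 0.05, and 1.3% of all probes were called. With normexp background correction 8 members were called, and with failed spots kept or without the slide term 4. The share of all probes under these settings is not given, so these counts are not read as a result about the members. In SM, over 82 arrays, 6 members rose and none fell, against 8.29% of all probes. They were TNFRSF1A with a slope of 0.16 ± 0.02 (adjusted p = 1.08e-05), STAT6 by probe BP162868.1_1323 with 0.26 ± 0.05 (adjusted p = 0.000817), IL27RA, IL17RA, IL10RB and IL16. The slopes of the last 4 were 0.27 ± 0.05, 0.12 ± 0.03, 0.18 ± 0.05 and 0.15 ± 0.04, with adjusted p-values from 0.000405 for IL27RA to 0.0137 for IL16.

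The members of SM were not called in LM, but the difference between the muscles did not pass its own test. No member's slope on SOCS3 differed (lowest adjusted p = 0.408, 3 with an unadjusted p under 0.05), against 0.0091% of all probes. In LM the slope of TNFRSF1A was 0.10 ± 0.03 (adjusted p = 0.0775) and that of STAT6 by the same probe 0.25 ± 0.07 (adjusted p = 0.0648). SOCS3 and TNFRSF1A had a Pearson r of 0.49 in LM and 0.57 in SM (rho 0.35 and 0.53, largest adjusted permutation p = 0.00324), or 0.37 and 0.50 without the 2 farthest arrays. For SOCS3 and STAT6 it was 0.51 and 0.53 (rho 0.45 and 0.51, largest adjusted permutation p = 0.00012), and for SOCS3 and IL17RA 0.51 and 0.43 (rho 0.33 and 0.42, largest adjusted permutation p = 0.00553). Without the 2 farthest arrays these were 0.35 and 0.49 for STAT6 and 0.37 and 0.39 for IL17RA.

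Among named genes outside the members, PLAU, the urokinase protease, had the smallest p in both muscles with slopes of 0.38 ± 0.06 and 0.38 ± 0.04. CSF1, the growth factor of macrophages, rose with 0.33 ± 0.07 and 0.32 ± 0.05, and BCL3, an IkB-like protein of the nucleus, with 0.17 ± 0.03 and 0.26 ± 0.03 by 1 of its 2 probes. CD46 and BCAS2 completed the first 5 of these in LM. In SM, PPP1R3B, a glycogen-targeting subunit of protein phosphatase 1, fell with a slope of -0.50 ± 0.08. The correlation of SOCS3 with the leukocyte mean was 0.20 in LM and 0.30 in SM.

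IL2RG was the third. In LM 8 members rose with it and 2 fell (25.7% of all probes called), and in SM 13 rose and 1 fell (37.4%), 8 of them rising in both. IFNAR2 had slopes of 0.70 ± 0.08 and 0.66 ± 0.06, TNFRSF1B of 0.51 ± 0.07 and 0.51 ± 0.05, and JAK3 of 0.47 ± 0.08 and 0.47 ± 0.05. Those that fell were both probes of JAK2 in LM and 1 of them in SM. The members' shares, 22.2% in LM and 31.1% in SM, were below those of all probes, and IL2RG itself followed the index of C-rich probes. With the index as a covariate no member was called in LM, against 0.856% of all probes, and in SM 3 rose and 6 fell, against 9.36%. The 3 that rose were IFNAR2, JAK3 and TNFRSF1B.

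The slope of TRAF3IP1 on IL2RG was 2.22 ± 0.22 in LM and 0.96 ± 0.11 in SM, and this difference passed its test (-1.26, limma adjusted p = 2e-05), where 3.45% of all probes did. With failed spots kept it was -0.34 (limma adjusted p = 0.233) and did not pass. With the index as a covariate the slopes were -0.81 and -0.16, neither of them called. IL2RG and IFNAR2 had a Pearson r of 0.84 in LM and 0.78 in SM, with a rho of 0.84 and 0.70 (adjusted permutation p = 1.33e-05 for r). It was 0.82 and 0.73 without the 2 farthest arrays and 0.35 and 0.46 after removal of slide and index.

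Over all 1035 pairs of member probes the median correlation was 0.049 in LM and 0.074 in SM, against 0.006 and 0.003 over all probes. A correlation above 0.5 was found for 46 pairs in LM, 52 in SM and 27 in both, and none was below -0.5. These counts use the arrays on which both probes were read. With missing values set to the mean of the probe, as was needed over all probes, they were 38 in LM and 49 in SM, or 3.67% and 4.73% of the member pairs, against 1.24% and 1.44% of all pairs of probes. After removal of slide and index, done in the same way, 22 pairs in LM, 32 in SM and 11 in both lay above 0.5. These are 2.13% and 3.09% of the member pairs, against 0.471% and 0.927% of all pairs. Among the 11, IRF5 and IL16 had an r of 0.71 in LM and 0.79 in SM (rho 0.67 and 0.75, adjusted permutation p = 1.33e-05 for r), 0.66 and 0.77 without the 2 farthest arrays and 0.66 and 0.80 after removal. After removal, TNFRSF1A had 0.51 and 0.60 with STAT6 by probe BP162868.1_1323 and 0.64 and 0.57 by probe CA780036.1_3005.

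Pairs of probes of 1 gene give a measure of how well such correlations are read. For JAK2 they had an r of 0.61 and 0.51, for STAT6 0.56 and 0.37 and for NFKBIA 0.88 and 0.92 (largest adjusted permutation p = 0.000462). Those of TRAF1 did not pass (adjusted permutation p = 0.0572 and 0.178). Their rho was 0.61 and 0.58 for JAK2, 0.60 and 0.39 for STAT6, 0.83 and 0.90 for NFKBIA and -0.20 and 0.20 for TRAF1. Without the 2 farthest arrays r was 0.70 and 0.50 for JAK2, 0.57 and 0.36 for STAT6, 0.86 and 0.92 for NFKBIA, and -0.21 and 0.12 for TRAF1.

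Slides within a muscle separated many probes, and the members no more often than all probes. In LM, over 18 slides with 3 or more arrays, 26 of 46 members differed between slides, against 58.8% of all probes. In SM, over 13 slides, 4 of 46 did, against 14%. These were JAK3, TRAF3IP1, IL3RA and TNF, and 3 members were called in both muscles. JAK3 had the smallest adjusted p in LM (4.9e-17). Slides also differ in the pigs they hold, and the part of the pigs cannot be told apart.

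Under the number that the labels give, an F test of the number was run over both muscles with the slide as a covariate. No member was called by this F test (adjusted p from 0.160 to 0.975), and 0.273% of all probes were. An unadjusted p under 0.05 in it was reached by 6 of 46 members and by 12.8% of all probes. The 5 smallest p-values were those of SOCS3, IFNAR2, STAT5B, CXCL16 and IL18BP. For 13 probes the values of LM and SM with the same number were correlated. The 5 just named were chosen by the same measure, so their correlations are a description with no test. SOCS3 gave a Pearson r of 0.27 (n = 68) and a rho of 0.33, with r = 0.24 without the 2 farthest numbers, and IFNAR2 gave 0.30 for both (n = 86, and r = 0.30 without the 2 farthest). The other 8, ISG15 among them at 0.15 (rho 0.12, adjusted permutation p = 0.331 and 0.45), passed for neither coefficient (lowest adjusted permutation p = 0.129 for r and 0.302 for rho).

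Between arrays that were closest on the probes of 2 levels, the picture differed. With all values kept, ISG15 in LM and SM had a correlation of 0.967 over the 40 closest arrays, and in each of these pairs it was higher in SM. The same 40 LM arrays with the SM arrays of the same number gave 0.32, and all arrays of the same number 0.16. IFIT1 had 0.893, IFI35 0.835 and STAT2 0.825, where the same number gave 0.24, 0.33 and 0.11 over the same 40 LM arrays and 0.15, -0.04 and -0.03 over all. The median over the members was 0.519 over the closest arrays and, under the number, 0.104 over the same LM arrays and 0.034 over all. Above 0.5 lay 24 members over the closest arrays and none under the number by either count. NFKB1, NFKBIB and TRAF3IP1 had -0.12, -0.09 and -0.06 over the closest arrays and, under the number, -0.26, -0.30 and -0.04 over the same LM arrays and -0.13, -0.20 and 0.10 over all. IFNAR2 was lower over the closest arrays, at 0.25, than under the number with the same LM arrays, at 0.44. Of all probes, 31.5% were above 0.5 over the closest arrays and 0.3% over all arrays of the same number. These values are a description with no test, since the arrays were joined after the data had been seen.

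**Figure D4:**
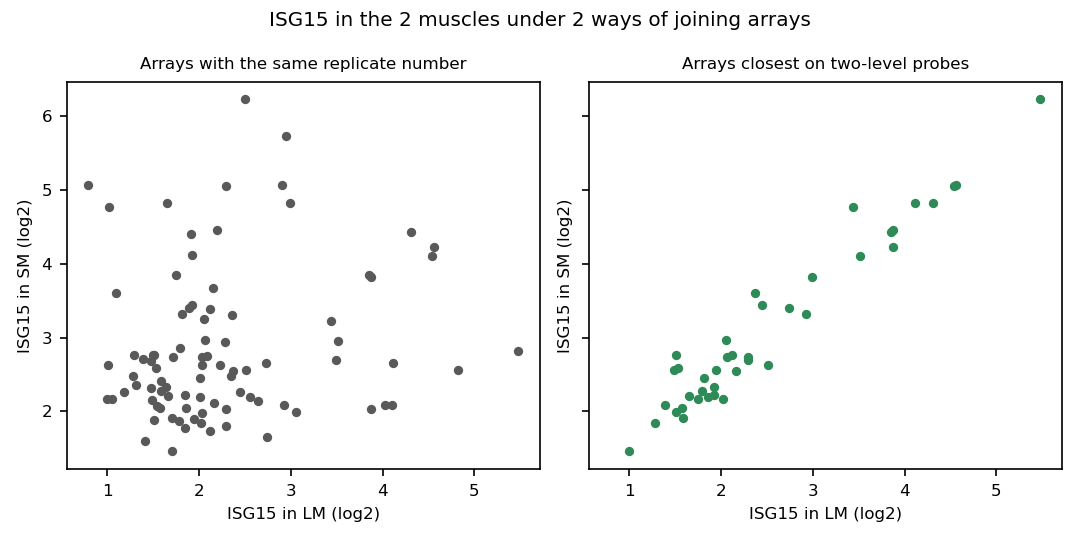
ISG15 in SM (y axis, log2) against ISG15 in LM (x axis, log2), 1 point per pair of arrays, for arrays with the same replicate number (left) and for the 40 pairs closest on probes of 2 levels (right). Points scatter with a correlation of 0.16 on the left and lie along a line (0.967) on the right.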

How the data were processed

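The deposited scanner output holds, per the file headers, spot intensities on a linear scale from Agilent Feature Extraction (protocol GE1-v5_95_Feb07, version 9.5.1.1 for 44 arrays of LM and 9.5.3.1 for the rest), already corrected for background and for spatial trends but with no scaling between arrays. The table of 6903 probes that the authors deposited is on the natural log scale and was used as an alternative. No coordinates or promoter sequence of the members were used here. Depth on an array is its number of readable spots, so the number of arrays limits the precision.

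The log2 of the processed signal was taken. Non-uniform, saturated and dim spots (not well above background) became missing (2.73% of values), a probe was dropped when over 50% of its spots failed in LM or in SM, the array median was subtracted, and 7460 values over 3 SD from the probe mean were removed. Gene names came from the study's lists, of which the one for SM was held in part, and fold changes in those lists were not used.

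Limma 3.58.1 in R 4.3.3 gave the muscle contrast, the slopes within a muscle (slide as covariate) and the F tests of slide and number, with Benjamini-Hochberg adjustment over all probes kept and a threshold of 0.05. The number could not pair the muscles (see the check on probes of 2 levels), so it was a block only as an alternative. The data were read with pandas 2.3.3 and NumPy 2.4.6 and plotted with matplotlib 3.10.9 under Python 3.11.15. Ranges were given for the 4 members with the largest differences each way, members with 2 probes, a fixed set (ISG15, IFIT1, IFI35, IRF7, STAT2, TNF, SOCS3, NFKBIA, IL2RG) and the 5 members with the smallest p of the number. Other genes were named from lists of pathway and cell type genes and as the 5 named probes outside the members with the smallest p on each anchor gene. The members, lists and anchor genes were chosen with earlier results of these data known. On simulated data for 10987 probes, with 200 changed, 100% of differences of 1 SD between muscles were recovered. For slopes of 0.7 SD it was 97.5% (LM) and 99.5% (SM). Of the probes called, 6.1% were false for the muscles, and 6.25% (LM) and 1.97% (SM) for the slopes. These simulations drew independent errors with no slide effect, index of C-rich probes or shared pig, so recovery with these present was not tested.

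The alternatives were quantile normalization, centring at the 75th percentile, normexp (offset 50) for the background, failed spots kept, no filter on dim probes, values over 3 SD kept, the index of C-rich probes, the number as replicate block with and without it, the slide as random block, no slide term, muscle in place of slide, and the deposited table. The leukocyte mean as covariate, the joining of closest arrays and the alternatives for slides and for TRAF3IP1 were added after the data were seen.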

Additional observations from a re-analysis of the deposited data

Results flagged for a closer look

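The slope of TRAF3IP1 on IL2RG differed between the muscles, by -1.26 as SM minus LM (limma adjusted p = 2e-05), with 2.22 in LM and 0.96 in SM. With failed spots kept the difference was -0.34 (adjusted p = 0.233), and under 5 other alternatives it lay between -1.37 and -0.87 and stayed called. Both genes followed the index of C-rich probes (0.86 and 0.87 for IL2RG, 0.83 and 0.82 for TRAF3IP1), and its part in the difference was not tested.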

How the results depend on the processing

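Members higher in SM numbered 30 as reported, 30 with the number as replicate block and 27 with that block and the index of C-rich probes, and 27 to 32 under all alternatives run. With the index as covariate, members called with IL2RG went from 10 to 0 in LM and from 14 to 9 in SM, and those differing between slides of SM from 4 to 9. It reversed the differences of JAK3 (0.0079), TNFRSF1B (0.12) and TRAF1 by probe BX924833.1_148 (0.31), and the slopes on IL2RG of TRAF3IP1 (-0.81 in LM and -0.16 in SM), STAT5A (-0.11 in SM) and TNFRSF6B (-0.086 in SM). The replicate block with the index reversed ISG15 (0.15), TNFRSF1B (0.057) and TRAF1 by the same probe (0.15). Normexp reversed STAT5B (-0.013) and gave 8 members called with SOCS3 in LM and 2 under the number, each in place of 0. With failed spots kept, and with no slide term, 4 members were called with SOCS3 in LM. Values over 3 SD kept gave 5 in place of 10 with ISG15 in SM and 1 in place of 0 under the number, and muscle in place of slide gave 2. Centring on the 75th percentile gave 8 in place of 4 between slides of SM. With the leukocyte mean as covariate 3 members in place of 5 in LM and 3 in place of 10 in SM were called with ISG15, and the slope of IRF5 reversed (-0.012 in LM and -0.028 in SM). The median correlation of member pairs in SM was 0.0296 in place of 0.07 without slide and index.

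The cause of these changes was not tested. Counts of members called whose share of all probes under that alternative is not given are not read as results about the members. Limits are that slides, scan days and muscles coincide, that the number does not join the muscles, and that sex and family are not in the labels. Dim probes also rest on fewer usable spots, such as CXCL16 on 62 in LM and 64 in SM and SOCS3 on 73 and 84.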

Other observations

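Genes outside the members and lists of immune cells also moved along ISG15 in SM. SCD, which makes monounsaturated fatty acids in adipocytes, fell with a slope of -0.58 ± 0.14 (SE, limma adjusted p = 0.00323), and the endothelial markers CD34 (-0.24 ± 0.06) and ENG (-0.12 ± 0.03) fell as well. They are 1 of 6 adipocyte probes and 2 of 9 endothelial probes, none of which rose, and the second ENG probe was not called (-0.07 ± 0.05). These slopes were not called in LM. The difference between the muscles was not given a test for these genes here. No connective tissue, red blood cell or muscle fibre marker was called with ISG15 in either muscle.

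Along SOCS3 in SM, the leukocyte markers CD14 (0.18 ± 0.04), TLR2 (0.29 ± 0.06), CD53, CD86 and LCP1 rose. The fibre markers RYR1 (-0.20 ± 0.07) and TNNI1 (-0.12 ± 0.04) fell, where 8.29% of all probes were called. They are 5 of 21 leukocyte probes and 2 of 14 fibre probes, and the other probes of both lists were not called. The interferon-stimulated genes OAS1 (0.66 ± 0.14), MX1 (0.38 ± 0.12), UBE2L6 and DHX58 rose along SOCS3 in SM, and none of the 14 was called in LM. When the index of C-rich probes was fitted too, 2 of these 4 were called, without MX1 (adjusted p = 0.0561) and DHX58 (0.0662), and RYR1 was not called (0.0507).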
